A study of Mus musculus with 8 samples.

Results

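The effect of losing Ezh1 in T cells that already lack Ezh2 was described by setting the double knockout (double KO) against the Ezh2 knockout (Ezh2 KO), in H3K27me3 and in RNA. H3K27me3 was compared at 17981 of 18603 promoter windows and RNA at 5218 of 22410 genes, those with a value of at least 1 in the higher of the 2 libraries. The assays were joined by gene symbol, and 4829 genes passed in both. The study took naive CD4+ T cells from the lymph nodes of 129SV/B6 mice and profiled them by H3K27me3 ChIP-seq and by RNA-seq. The double KO is Ezh1-/- Ezh2 fl/fl CD4-cre, labelled Ezh1-/-, Ezh2-/-. The Ezh2 KO is Ezh2 fl/fl CD4-cre, labelled Ezh2-/-, so both carry the floxed Ezh2 alleles and the Cre. CD4-cre is a transgene in which regulatory sequence of Cd4 drives the Cre recombinase, which removes the floxed part of Ezh2 in developing T cells, while the Ezh1-/- allele is carried by every cell of the animal. Ezh1-/- (Ezh1 KO) and WT libraries, which sit on neither side of the comparison, are given beside it. Age, sex and the number of animals per library are not given in the sources used here. Each genotype has 1 library per assay, so values carry no SD and no test, and "higher" or "lower" says only which of 2 libraries had the larger value.

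Polycomb repressive complex 2 (PRC2) holds either Ezh1 or Ezh2 as its enzyme and methylates lysine 27 of histone H3. The trimethylated form, H3K27me3, lies over CpG-rich promoters of silent developmental genes and is read by Polycomb repressive complex 1. In T cells PRC2 is known to keep lineage regulators and effector genes of other T cell subsets silent, and Ezh1 is known as the form of the enzyme found in resting cells, where Ezh2 is scarce. Setting the double KO against the Ezh2 KO asks what Ezh1 does where Ezh2 was deleted.

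The deleted genes were checked first. Ezh1 RNA, given as the mean over its 21 exons of the peak of coverage per M reads, was 0.194 in the double KO and 1.12 in the Ezh2 KO, beside 0.196 in the Ezh1 KO and 1.05 in WT. Over the median exon it was 0.0208 in the double KO and 0.971 in the Ezh2 KO, so both libraries fit their Ezh1 labels. Ezh2 RNA was 1.17 in the double KO and 1.08 in the Ezh2 KO, beside 0.913 in the Ezh1 KO and 0.925 in WT. A mean over exons need not show the loss of a few of them, so the Ezh2 deletion rests on the labels in both genotypes. The Cd4 window gave another mark of the shared background: its H3K27me3 area was 212 in the double KO and 193 in the Ezh2 KO, beside 24.1 in the Ezh1 KO and 19.9 in WT. Both high libraries are those with the CD4-cre transgene, and reads from transgene copies of Cd4 sequence and from Cd4 itself cannot be told apart. T cell markers were at 1 or more in both RNA libraries for all 5 measured of 6 (Cd3e, Cd3g, Cd4, Lck and Lat). The haemoglobin genes, Pf4 and the collagens were under 0.05 in both.

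Depth was 88.2 M reads in the double KO and 78.2 M in the Ezh2 KO for ChIP-seq, which puts 199 and 177 read equivalents in a median window. For RNA-seq it was 94.1 M in the double KO and 40.7 M in the Ezh2 KO. H3K27me3 values are the summed coverage per M reads of a 6 kb window around the start site. The log2 ratios are of double KO over Ezh2 KO, with a pseudocount of 1 for H3K27me3 and 0.1 for RNA, which understates differences of low values. Of the compared features, 4 windows and 187 genes passed the minimum through the double KO alone, and 15 windows and 259 genes through the Ezh2 KO alone. Just above the minimum lay Phf1 RNA, with 1.00 in the double KO and 0.849 in the Ezh2 KO. Just below it lay Afg3l2 RNA, with 0.881 in the double KO and a value that rounds to 1.00 in the Ezh2 KO, and Cdkn2d H3K27me3, with 0.89 in the double KO and 0.63 in the Ezh2 KO.

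For 6 promoters whose windows differed at least 1.5-fold, the 200 bases upstream of the annotated start are shown. They were picked from such windows and are not the 6 with the largest ratios. The bases were read from mm9 (NCBI build 37) on the strand of the gene, with each CpG in capitals. CpG content is shown because it is the sequence feature that PRC2 targets are known for. None of the 6 stretches overlaps an annotated exon. The first 3 belong to windows that were lower in the double KO: Coil (chr11:88831366-88831565, + strand), Marcks (chr10:36858733-36858932, - strand) and Hes1 (chr16:30064270-30064469, + strand). The other 3 belong to windows that were higher: Asns (chr6:7643255-7643454, - strand), Asap3 (chr4:135762080-135762279, + strand) and Sall1 (chr8:91568062-91568261, - strand).
Coil: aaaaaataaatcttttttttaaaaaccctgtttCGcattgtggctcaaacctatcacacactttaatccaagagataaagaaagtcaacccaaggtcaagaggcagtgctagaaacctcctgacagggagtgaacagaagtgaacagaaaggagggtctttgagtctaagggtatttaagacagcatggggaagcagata
Marcks: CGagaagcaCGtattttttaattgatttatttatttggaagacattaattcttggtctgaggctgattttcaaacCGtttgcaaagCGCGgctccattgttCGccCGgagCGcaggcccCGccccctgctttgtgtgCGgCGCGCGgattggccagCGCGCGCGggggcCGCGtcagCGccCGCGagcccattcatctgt
Hes1: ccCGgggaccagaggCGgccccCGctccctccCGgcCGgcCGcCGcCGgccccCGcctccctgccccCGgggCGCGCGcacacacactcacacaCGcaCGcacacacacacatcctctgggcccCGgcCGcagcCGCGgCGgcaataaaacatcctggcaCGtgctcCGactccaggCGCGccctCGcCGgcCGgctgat
Asns: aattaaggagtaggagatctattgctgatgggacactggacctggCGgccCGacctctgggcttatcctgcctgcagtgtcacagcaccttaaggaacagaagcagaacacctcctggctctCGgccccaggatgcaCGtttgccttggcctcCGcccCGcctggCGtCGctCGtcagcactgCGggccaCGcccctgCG
Asap3: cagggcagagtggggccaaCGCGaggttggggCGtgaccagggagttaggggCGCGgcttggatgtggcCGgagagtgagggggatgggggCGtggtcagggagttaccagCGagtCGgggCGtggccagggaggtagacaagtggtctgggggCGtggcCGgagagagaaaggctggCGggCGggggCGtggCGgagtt
Sall1: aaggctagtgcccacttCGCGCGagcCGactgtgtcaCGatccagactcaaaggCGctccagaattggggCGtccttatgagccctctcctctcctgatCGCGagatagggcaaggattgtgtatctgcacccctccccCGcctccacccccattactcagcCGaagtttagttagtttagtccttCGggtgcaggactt
The Coil stretch holds 1 CpG, the Marcks stretch 22 and the Hes1 stretch 27, and the stretches of Asns, Asap3 and Sall1 hold 12, 16 and 12. Over the whole 6 kb windows the counts were 44 at Coil, 375 at Marcks, 324 at Hes1, 133 at Asns, 117 at Asap3 and 388 at Sall1. Among these 6, the window poorest in CpG was Coil, on the lower side, and the richest was Sall1, on the higher side. Asns and Asap3 lay near the median of all windows, 118. Over all windows past 1.5-fold, the median was 191.5 CpG for those higher in the double KO and 131.5 for those lower, beside 118 for 17974 windows.

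H3K27me3 was slightly higher in the double KO than in the Ezh2 KO over most Polycomb-marked promoters. Marked windows were defined in WT, which is on neither side, as those with at least 4 times the median of windows of genes in the highest tertile of WT RNA. Over the 2278 marked windows, 12.2% of all, the median area was 56.5 in the double KO and 47.2 in the Ezh2 KO. Over the windows of highly expressed genes it was 10.3 in the double KO and 11.03 in the Ezh2 KO. The ratio of these medians, the enrichment, was 5.48 in the double KO and 4.28 in the Ezh2 KO, beside 6.61 in the Ezh1 KO and 5.12 in WT. The median log2 ratio of marked windows was 0.23, with 5th and 95th percentiles of -0.08 and 0.48, and 2077 of the 2278 (91.2%) were above 0. All 17981 windows had a median of 0.05 and 58.1% above 0, and windows of highly expressed genes a median of -0.05 and 39.9% above 0. With no spike-in and no second library, more mark in the cells and a more efficient immunoprecipitation cannot be told apart. With marked windows set equal between the libraries, the median of marked windows was -0.02 and that of all windows -0.19.

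The difference was larger in marked windows with more CpG and did not follow the level of the mark in 1 direction. Windows at 2 to 4 times background in WT had a median log2 ratio of 0.17 (3595 windows), those at 4 to 6 times 0.24 (1778), those at 6 to 8 times 0.20 (472) and those at 8 times or more 0.11 (28). From the marked windows poorest in CpG to the richest, the quartile medians were 0.18, 0.23, 0.24 and 0.29. Of the 25 marked windows at least 1.5-fold higher in the double KO, 13 lay in the richest quartile and 2 in the poorest.

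Single windows rarely differed by much. At least 1.5-fold higher in the double KO were 96 windows (0.534% of those compared), and 52 (0.289%) were at least 1.5-fold lower. At 2-fold there were 3 higher (0.0167%) and 3 lower (0.0167%). The split at 1.5-fold depends on the scaling, with 51 higher and 80 lower under median of ratios, 53 and 78 under TMM, 333 and 20 with windows of highly expressed genes set equal, and 4 and 612 with marked windows set equal. Among the windows at least 1.5-fold higher 25 were marked in WT, and among those lower 10 were.

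**Figure D1:**
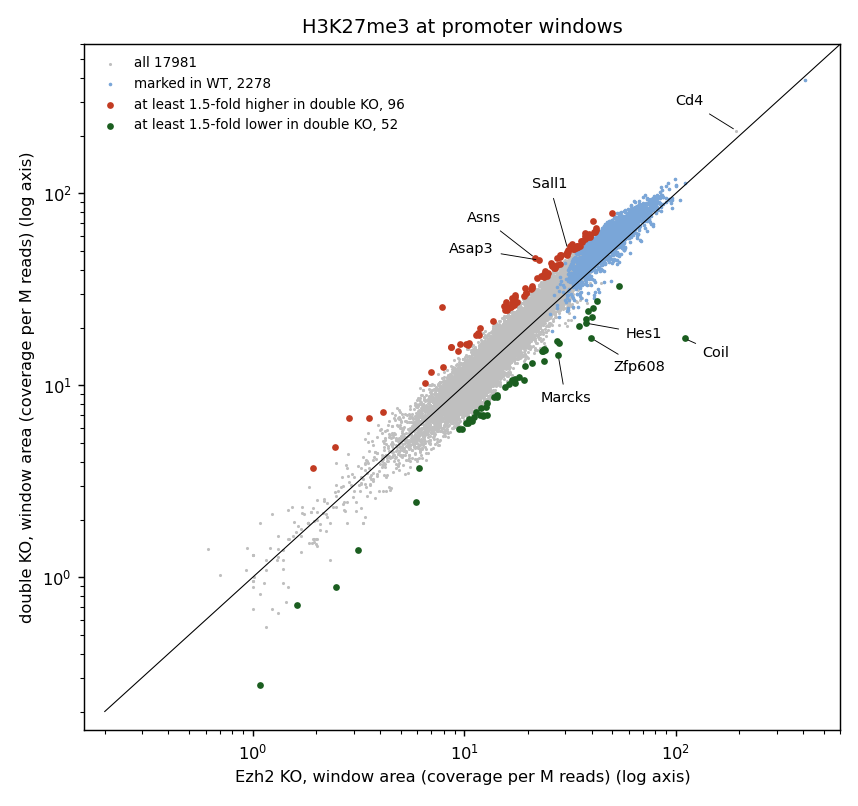
H3K27me3 area per promoter window in the double KO (y axis) against the Ezh2 KO (x axis), both in coverage per M reads on log axes, for 17981 windows. Blue points are the 2278 windows marked in WT, most of which lie above the line of equality; red points are the 96 windows at least 1.5-fold higher and green points the 52 at least 1.5-fold lower in the double KO, with Coil farthest from the line.

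The lower windows were led by Coil, which encodes coilin, the scaffold protein of Cajal bodies in the nucleus. Its area was 17.5 in the double KO and 110.0 in the Ezh2 KO, beside 17.7 in the Ezh1 KO and 133 in WT (log2 ratio -2.58, 95% counting interval of the read ratio -2.85 to -2.46, exact Clopper-Pearson, for counting error only). Both libraries without Ezh1 were low and both with Ezh1 were high, and the highest bin of the window gave 0.269 in the double KO and 1.46 in the Ezh2 KO. The window (mm9 chr11:88828566-88834566) lies on the chromosome of Ezh1 itself, whose window is chr11:101084777-101090777, so sequence linked to the Ezh1-/- allele and the absence of Ezh1 cannot be told apart there. 2310001H12Rik showed the same order at a low level, with 2.46 in the double KO and 5.95 in the Ezh2 KO, beside 2.01 in the Ezh1 KO and 5.55 in WT.

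In the lower windows named next the double KO was the lowest of the 4 libraries. Zfp608, a zinc finger gene, had an area of 17.6 in the double KO and 39.9 in the Ezh2 KO, beside 45.3 in the Ezh1 KO and 38.9 in WT (log2 ratio -1.14, counting interval -1.40 to -0.96). Marcks, which encodes a membrane-bound substrate of protein kinase C, had 14.3 in the double KO and 27.8 in the Ezh2 KO, beside 26.6 and 29.6 in the Ezh1 KO and WT (log2 ratio -0.91). Hes1, a transcriptional repressor induced by Notch, had 21.1 in the double KO and 37.7 in the Ezh2 KO, beside 45.8 and 43.2 (log2 ratio -0.81). In each of these windows the double KO was the lowest of the 4 libraries and the other 3 lay close together. Atp6v0a4, a proton pump subunit gene, had 22.7 in the double KO and 40.3 in the Ezh2 KO, but 58.2 in the Ezh1 KO and 57.7 in WT (log2 ratio -0.80). Lamc1, a laminin chain gene, had 20.4 in the double KO and 34.9 in the Ezh2 KO, beside 43.0 and 45.3 (log2 ratio -0.75), and Atf6, a sensor of protein folding stress, had 22.3 and 37.5, beside 38.2 and 47.7 (log2 ratio -0.73). At Atp6v0a4 and Lamc1 the Ezh2 KO was thus already below both genotypes with Ezh2. At Atf6 it was too, though close to the Ezh1 KO (37.5 against 38.2). In the highest bin of the window the log2 ratio was -0.49 at Hes1, -0.45 at Atp6v0a4 and -0.24 at Lamc1, under 1.5-fold.

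A group of neighbours was lower together on chromosome 19. Of the 5 windows in chr19:29323318-29444945 (mm9), 3 were at least 1.5-fold lower, and the median log2 ratio of the 5 was -0.62. The interval runs from the first to the last of these 3. With 3 of 5 windows past 1.5-fold, their median was bound to be past it too. Cd274, which encodes the inhibitory ligand PD-L1, had 6.93 in the double KO and 12.3 in the Ezh2 KO, beside 6.92 in the Ezh1 KO and 8.71 in WT, and 5033414D02Rik shares nearly all of that window. Jak2, a cytokine receptor kinase gene, had 9.78 in the double KO and 15.5 in the Ezh2 KO, beside 11.1 and 12.6. The Ezh2 KO was the highest of the 4 libraries at both, and none of the 3 was marked in WT. RNA of both genes was nearly the same: Cd274 had 1.69 in the double KO and 1.66 in the Ezh2 KO, and Jak2 5.12 and 5.49.

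Of the 3 windows at least 2-fold higher 1 has a symbol, Asns. Among windows with a symbol, Asap3 came next. Asns, the enzyme that makes asparagine, had an area of 46.0 in the double KO and 21.7 in the Ezh2 KO, beside 54.1 in the Ezh1 KO and 41.6 in WT (log2 ratio 1.05, counting interval 0.88 to 1.29). Asap3, which encodes a regulator of Arf GTPases, had 44.9 in the double KO and 22.7 in the Ezh2 KO, beside 51.8 and 46.1 (log2 ratio 0.96). At both promoters the Ezh2 KO was the low library and the double KO lay close to WT, and in the highest bin the Asns log2 ratio was 0.41. 1810019J16Rik had 72.0 in the double KO and 40.7 in the Ezh2 KO, beside 70.3 and 60.6 (log2 ratio 0.81), with the Ezh2 KO again the lowest library. Nr0b2, an orphan nuclear receptor gene, had 43.4 in the double KO and 25.6 in the Ezh2 KO, beside 51.5 and 39.1, and Megf6 had 62.3 and 37.1, beside 66.3 and 48.3. Naip6 and Naip7 share 1 window and Klrc2 has near-identical relatives, so their higher values are uncertain.

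Other higher windows belong to developmental and signalling genes and were high in both genotypes without Ezh1. Sall1, a zinc finger factor of kidney and limb development, had 50.9 in the double KO and 30.9 in the Ezh2 KO, beside 62.1 in the Ezh1 KO and 30.5 in WT (log2 ratio 0.70, counting interval 0.54 to 0.90). Wnt5a, a secreted Wnt ligand, had 39.3 in the double KO and 24.0 in the Ezh2 KO, beside 45.8 and 29.8 (log2 ratio 0.69). Socs3, an inhibitor of cytokine receptor signalling that is expressed in T cells, had 19.8 in the double KO and 11.9 in the Ezh2 KO, beside 18.4 and 8.77 (log2 ratio 0.69), with RNA of 4.15 in the double KO and 3.82 in the Ezh2 KO. In all 3 windows both Ezh1-/- libraries were above both libraries with Ezh1. Gata2, a factor of blood progenitors, had 60.8 in the double KO and 37.7 in the Ezh2 KO, beside 65.0 and 43.0, and Kdm6b, which encodes an H3K27 demethylase, had 15.2 and 9.38, beside 12.2 and 7.74. With marked windows set equal, Sall1, Wnt5a, Socs3, Gata2 and Kdm6b were each under 1.5-fold.

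By chromosome, the higher windows took the largest share on chromosome 4, with 18 of 1138 windows (1.58%, against 0.534% of all). Of the 80 windows in chr4:132310167-135765280 (mm9), 7 were at least 1.5-fold higher, among them Smpdl3b, Gpr3, 1810019J16Rik, Nr0b2, Lin28a and Asap3. This interval also runs from the first to the last of its higher windows. The median log2 ratio of those 80 windows was 0.19 here and 0.17 for the Ezh1 KO over WT. The lower windows were most frequent on chromosome 1, with 9 of 1082 (0.832%, against 0.289% of all).

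By gene group, developmental regulators had the largest difference in H3K27me3. These lists, like all others here, were drawn up with earlier results of these data known. Among 110 developmental transcription factors 100 windows passed, 98 were above 0, and 4 were at least 1.5-fold higher and 0 lower. At least 1.5-fold higher were 0.534% of all windows and 25 of the 2278 marked ones, and 0.289% of all were lower. The median log2 ratio of the developmental factors was 0.38, against 0.05 for all windows and 0.23 for marked ones. Pax2, a factor of kidney development, had 64.2 in the double KO and 41.9 in the Ezh2 KO, beside 67.8 in the Ezh1 KO and 40.8 in WT. Among 32 Wnt, Hedgehog and BMP ligand windows 31 were above 0 with a median of 0.31, and Wnt7b had 63.6 in the double KO and 43.6 in the Ezh2 KO. Of 39 Hox windows 30 passed and 26 were above 0, but their median was 0.18 and 0 reached 1.5-fold. The highest Hox ratio was at Hoxa11, with 108 in the double KO and 85.0 in the Ezh2 KO. Imprinted genes had 24 of 30 windows above 0 and a median of 0.28, led by Rasgrf1 with 71.3 in the double KO and 49.0 in the Ezh2 KO. Over all alternatives the medians ran from 0.13 to 0.48 for developmental factors, 0.05 to 0.40 for the ligands and 0.02 to 0.37 for imprinted genes, while the Hox median turned negative (-0.08) with marked windows set equal.

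B cell, interferon and cell cycle groups had medians below 0. Other immune groups stood on both sides of 0: 39 myeloid and dendritic cell windows had a median of 0.16 and 17 Th17 windows 0.15. Just below 0 were 30 memory and effector-memory windows (-0.0194) and 31 chemokine receptor and adhesion windows (-0.0225). Of 34 B cell and plasma cell windows 10 were above 0, the median was -0.12 and 1 window was at least 1.5-fold lower, against 0.289% of all windows. That window, H2-Ab1, a class II antigen presentation gene, had 13.1 in the double KO and 20.9 in the Ezh2 KO, beside 30.4 in the Ezh1 KO and 28.0 in WT (log2 ratio -0.64). Interferon-inducible GTPase windows had a median of -0.26 with 6 of 14 above 0, interferon-stimulated genes -0.09 with 18 of 49, and cell cycle genes -0.10 with 12 of 43. Windows of highly expressed genes also had a median below 0 (-0.05, with 39.9% above 0), so this sign is not particular to these groups. Their median area was 10.3 in the double KO and 11.03 in the Ezh2 KO. It was 10.28 and 11.09 for interferon-stimulated windows and 9.81 and 11.37 for cell cycle windows. The B cell, GTPase, interferon-stimulated and cell cycle medians were below 0 under every alternative run. T cell groups lay near the median of all windows, with 0.07 for 30 naive T cell genes, 0.06 for 25 T cell receptor genes and 0.04 for 19 regulatory T cell genes. Tcf7, which encodes the transcription factor TCF-1, was the naive gene with the largest ratio, with 36.4 in the double KO and 24.2 in the Ezh2 KO, beside 26.9 in the Ezh1 KO and 18.6 in WT.

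The loss of Ezh1 was also measured where Ezh2 is intact, by the Ezh1 KO against WT, and that comparison shares no library with the double KO against the Ezh2 KO. Over the same 2278 marked windows the median log2 ratio was 0.23 without Ezh2 and 0.29 with it, and 91.2% and 92.7% of windows were above 0. The marked windows were chosen by a high value in WT, which is the denominator of the Ezh1 KO over WT ratio. What that choice does to the median of 0.29 was not tested. Across these windows the ratios of both comparisons had a Pearson r of 0.59, a description over points that lie in the same libraries and often next to each other. At least 1.5-fold higher were 96 windows without Ezh2 and 347 (1.93%) with it. Of these, 21 were higher in both, among them Sall1, Wnt5a, Socs3, Kdm6b, Prdm16, Pax2, Sox10, Helt, Fzd8, Mn1 and Foxn4, which is 21 of 96 in the first comparison and 21 of 347 in the second. At least 1.5-fold lower were 51 windows without Ezh2, among those that passed in both comparisons, and 46 (0.256%) with it. In both were 5, namely Coil, 2310001H12Rik, Pyhin1, 2410141K09Rik and Vmn1r127, a receptor gene of a large family of similar copies. Hes1 (0.08), Marcks (-0.15), Atp6v0a4 (0.01) and Zfp608 (0.21) did not reach 1.5-fold in either direction with Ezh2 intact. At 2-fold, 2 windows (0.0111%) were higher and 4 (0.0223%) lower in the Ezh1 KO than in WT.

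**Figure D2:**
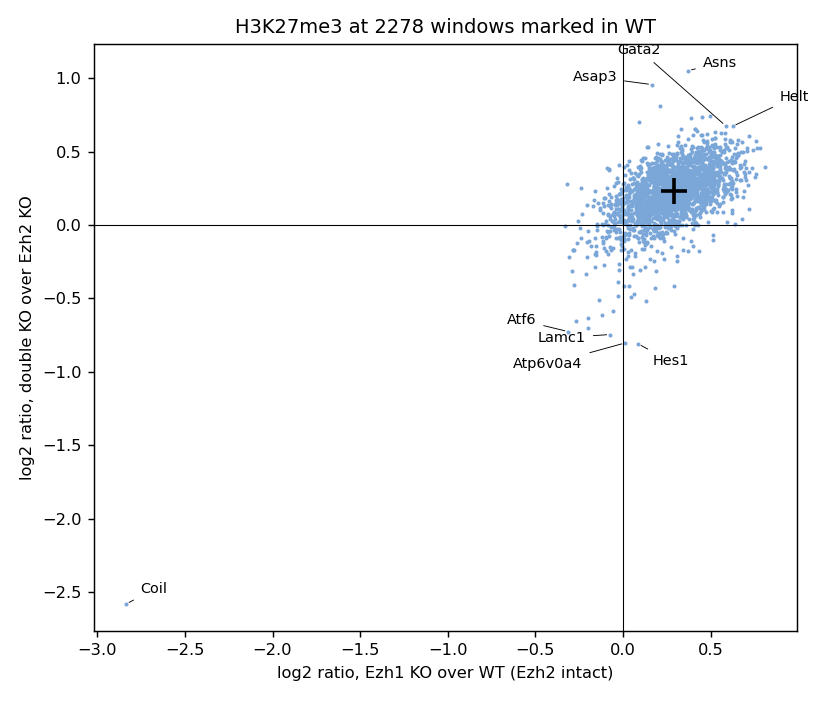
Log2 ratio of H3K27me3 in the double KO over the Ezh2 KO (y axis) against that in the Ezh1 KO over WT (x axis), for the 2278 windows marked in WT; the black cross is the median of both, 0.23 and 0.29. Most windows lie in the upper right, Coil lies far to the lower left, and Hes1, Lamc1 and Atp6v0a4 are low on the y axis only.

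RNA differed between the double KO and the Ezh2 KO for few genes. At least 2-fold higher in the double KO were 18 of 5218 genes (0.345%), and 23 (0.441%) were at least 2-fold lower. Of the higher genes 14 passed the minimum through the double KO alone, and of the lower genes 15 passed through the Ezh2 KO alone, so most differences concern low levels. With median of ratios the split was 31 higher and 15 lower and with TMM 32 and 15, while the median log2 ratio of all genes, -0.06 as deposited, became 0.11 and 0.12. The median was -0.13 for genes at 10 or more in WT and 0.00 for those at 0.1 to 0.3, and the part that the deeper double KO library plays in this was not tested. Of the higher genes 10 have no symbol in the files, and of the lower ones 4. For the Ezh1 KO over WT the counts at 2-fold were 8 higher (0.154%) and 15 lower (0.288%). Of the genes compared in both, 1 was higher in both (Gm10093) and 1 lower in both (Ezh1).

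**Figure D3:**
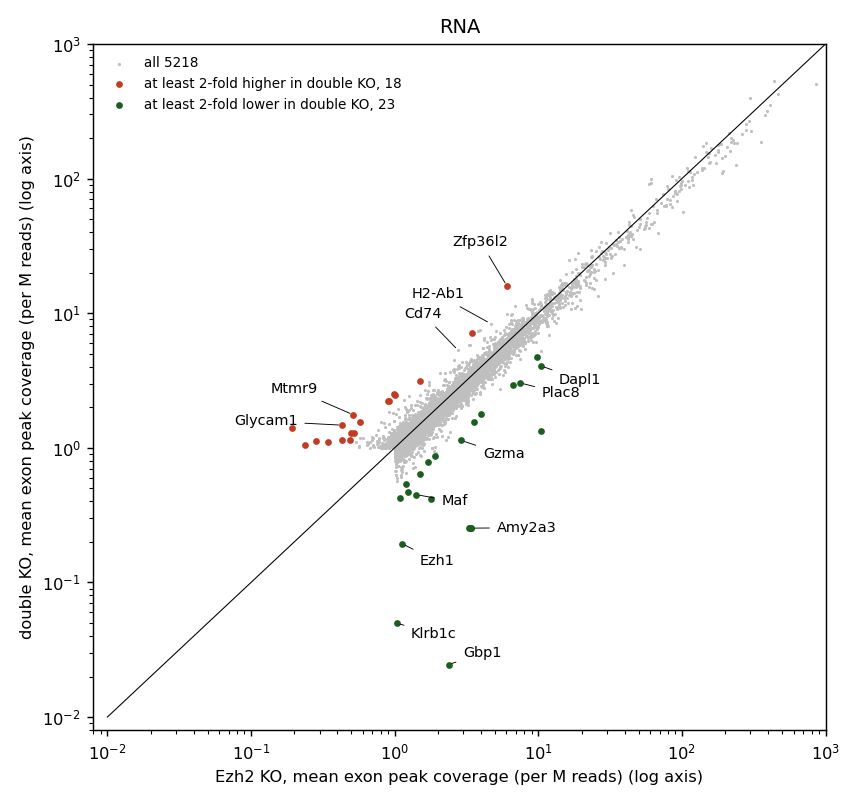
RNA as mean exon peak coverage per M reads in the double KO (y axis) against the Ezh2 KO (x axis) on log axes, for 5218 genes. Red points are the 18 genes at least 2-fold higher and green points the 23 at least 2-fold lower in the double KO; Gbp1, Klrb1c and Ezh1 lie lowest, and Zfp36l2 is the red point farthest to the right.

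The lower genes, beside Ezh1 itself (log2 ratio -2.06), included genes of cytotoxic and innate-like lymphocytes. Klrb1c, the NK cell receptor NK1.1, had 0.0498 in the double KO and 1.03 in the Ezh2 KO, beside 0.094 in the Ezh1 KO and 0.11 in WT (log2 ratio -2.92). Klrb1c passed the minimum through the Ezh2 KO alone, so it was compared because it was high there. Gzma, a granule protease of killer cells, had 1.13 in the double KO and 2.90 in the Ezh2 KO, beside 0.27 and 0.226 (log2 ratio -1.28). Plac8, a gene of activated and innate-like lymphocytes, had 3.04 in the double KO and 7.47 in the Ezh2 KO, beside 0.731 and 0.680 (log2 ratio -1.27), and over the median exon 2.94 in the double KO and 5.92 in the Ezh2 KO, just under 2-fold. In these 3 genes the Ezh2 KO was the highest of the 4 libraries, and at Gzma and Plac8 the double KO lay between it and the genotypes with Ezh2. Zbtb16, the transcription factor that defines NKT cells, stood under the minimum, with 0.0430 in the double KO and 0.619 in the Ezh2 KO, beside 0.0915 and 0.0470. It is named after its values were seen. The 6 NK cell markers summed to 3.03 in the double KO and 5.83 in the Ezh2 KO, and 1 of the 6 was higher in the double KO. In bulk samples, fewer cells of a type and less RNA per cell cannot be told apart, here and in the groups below.

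Like Klrb1c, the next genes Maf, Pdcd1, Nt5e, Ikzf2 and Igj all passed the minimum through the Ezh2 KO alone, so that they were compared because they were high there. Maf, a transcription factor of follicular helper and interleukin-producing T cells, had 0.449 in the double KO and 1.41 in the Ezh2 KO, beside 0.785 in the Ezh1 KO and 0.732 in WT (log2 ratio -1.46). Pdcd1, the inhibitory receptor PD-1, had 0.541 in the double KO and 1.20 in the Ezh2 KO, beside 0.588 and 0.610 (log2 ratio -1.02). Nt5e, the ectoenzyme CD73, had 0.791 in the double KO and 1.72 in the Ezh2 KO, beside 1.36 and 1.17 (log2 ratio -1.03). With TMM the log2 ratios of Pdcd1 and Nt5e were both -0.87, under 2-fold. Ikzf2, the regulatory T cell factor Helios, had 0.723 in the double KO and 1.39 in the Ezh2 KO (a log2 ratio of -0.85), while Foxp3, which defines those cells, had 0.647 and 0.631. Igj, the joining chain of secreted antibody, had 0.419 in the double KO and 1.79 in the Ezh2 KO, beside 0.423 and 0.260 (log2 ratio -1.86). The plasma cell markers Sdc1 and Tnfrsf17 were under 0.05 in both libraries.

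Dapl1, a gene of naive T cells, was lower in the double KO than in any other genotype. It had 4.06 in the double KO and 10.4 in the Ezh2 KO, beside 16.1 in the Ezh1 KO and 17.9 in WT (log2 ratio -1.34). Its window had an H3K27me3 area of 15.5 in the double KO and 14.2 in the Ezh2 KO (a log2 ratio of 0.11). Other lower genes fall in near-identical families and are uncertain: Gbp1, an interferon-inducible GTPase gene, had 0.0245 in the double KO and 2.37 in the Ezh2 KO, beside 0.835 and 1.11, and Bcl2a1b had 2.94 and 6.66, beside 3.70 and 4.38. Gbp1 also passed the minimum through the Ezh2 KO alone.

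The higher genes with a symbol were 8. Among them Mtmr9, 4933426I21Rik, Glycam1 and Psp passed the minimum through the double KO alone, so they were compared because they were high there. Zfp36l2, which encodes an RNA-binding protein that destabilises AU-rich mRNAs, had 15.9 in the double KO and 6.05 in the Ezh2 KO, beside 10.4 in the Ezh1 KO and 13.0 in WT (log2 ratio 1.38). The Ezh2 KO was the low library there, and its H3K27me3 window was listed at 0 in all 4 genotypes. Mtmr9, a myotubularin-related gene, had 1.76 in the double KO and 0.516 in the Ezh2 KO, beside 0.527 and 0.557 (log2 ratio 1.59), so that the double KO alone was high. 4933426I21Rik had 1.04 in the double KO and 0.239 in the Ezh2 KO, beside 0.670 and 0.767 (log2 ratio 1.76). Glycam1, a sialomucin made by the high endothelial venules of lymph nodes, had 1.47 in the double KO and 0.431 in the Ezh2 KO, beside 0.432 and 0.244 (log2 ratio 1.57). Psp, a salivary secretory protein gene, had 1.55 in the double KO and 0.577 in the Ezh2 KO, beside 0.825 in the Ezh1 KO and a listed 0 in WT.

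B cell genes were also among the higher ones. Bank1, a B cell signalling scaffold, had 1.29 in the double KO and 0.519 in the Ezh2 KO, beside 0.294 in the Ezh1 KO and 0.315 in WT (log2 ratio 1.16). H2-DMb2, a chain of the class II peptide loader, had 1.28 in the double KO and 0.495 in the Ezh2 KO, beside 0.339 and 0.248 (log2 ratio 1.21). Both passed the minimum through the double KO alone and had their highest value there, with the Ezh2 KO next. Other class II genes were just under 2-fold: Cd74, the invariant chain, had 5.30 in the double KO and 2.77 in the Ezh2 KO (a log2 ratio of 0.91), and H2-Ab1 had 8.37 and 4.66 (log2 ratio 0.83). Of 34 genes on the B cell and plasma cell list 15 passed, 6 of them through the double KO alone and 2 through the Ezh2 KO alone. Of the 15, 3 were at least 2-fold higher, 1 was lower (Igj) and 13 were above 0, with a median log2 ratio of 0.68 against -0.06 for all genes. The 8 B cell markers, among them Cd79a, Cd79b, Ms4a1 and Pax5, summed to 6.51 in the double KO and 3.80 in the Ezh2 KO, beside 2.27 in the Ezh1 KO and 1.94 in WT, and all 8 were higher in the double KO. At 1 or more were 3 of the 8 in the double KO and 0 in the Ezh2 KO. How far B cells in the sample account for these values was not tested.

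**Figure D4:**
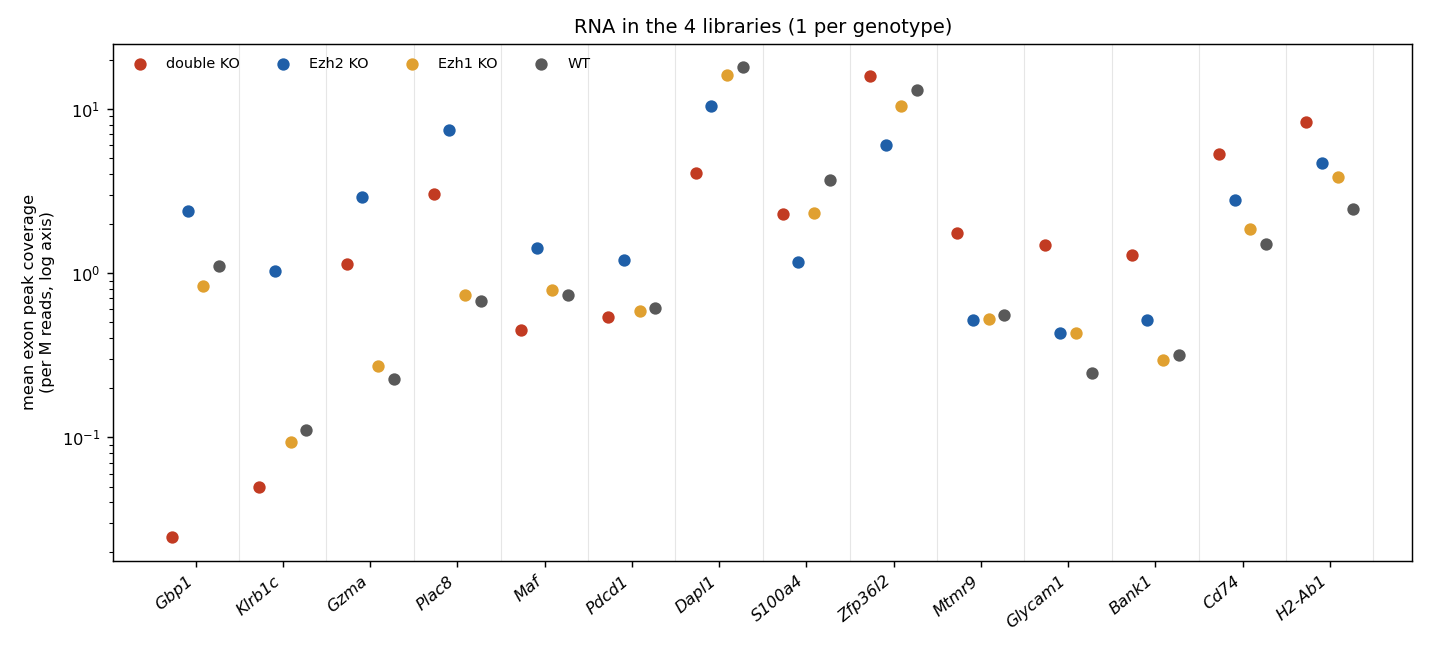
RNA of 14 genes as mean exon peak coverage per M reads on a log axis, with 1 point per library in the order double KO, Ezh2 KO, Ezh1 KO and WT. Klrb1c, Gzma, Plac8, Maf and Pdcd1 are highest in the Ezh2 KO, Dapl1 is lowest in the double KO, and Bank1, Cd74 and H2-Ab1 are highest in the double KO, with the Ezh2 KO next.

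By gene group, medians of RNA log2 ratios were below that of all genes for several effector and subset lists and above it for naive and immediate early genes. The share past 2-fold over all genes was 0.345% in the higher and 0.441% in the lower direction, and members that passed through 1 library alone had to be lower in the other. Of 18 NKT and innate-like genes 8 passed, 1 of them through the Ezh2 KO alone, 2 were at least 2-fold lower and 0 higher, and the median log2 ratio was -0.58 against -0.06 for all genes. Of 25 CD8 T and NK cell genes 7 passed, 1 through the double KO alone and 2 through the Ezh2 KO alone, with 2 lower, 0 higher and a median of -0.55. The 2 CD8 T cell markers on that list were both higher in the double KO: Cd8b1 had 1.83 in the double KO and 0.975 in the Ezh2 KO (a log2 ratio of 0.84), and Cd8a, under the minimum, 0.242 and 0.236. Of 17 follicular helper genes 8 passed, 3 of them through the Ezh2 KO alone, with 2 lower, 0 higher and a median of -0.57. Both lower genes, Maf and Pdcd1, were among the 3. The regulatory T cell list had 1 of 9 lower and a median of -0.16, and 3 of the 9 passed through the Ezh2 KO alone. Icos, the inducible co-stimulator, stands on the NKT, helper and regulatory lists alike, with 2.51 in the double KO and 3.96 in the Ezh2 KO (a log2 ratio of -0.64). Id2, a regulator of innate and effector lymphocytes, had 4.58 in the double KO and 7.41 in the Ezh2 KO, beside 3.91 in the Ezh1 KO and 3.65 in WT.

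Naive T cell genes had 29 of 30 members over the minimum, of which 22 were above 0, 0 were at least 2-fold higher and 1, Dapl1, was lower, with a median of 0.20. The largest ratios of the list in size were all below 0, at Dapl1, Art2b and Ccr9. Art2b, of a near-identical family and so uncertain, had 5.23 in the double KO and 10.5 in the Ezh2 KO. Ccr9, which passed through the Ezh2 KO alone, had 0.874 in the double KO and 1.54 in the Ezh2 KO. Klf2, a factor that keeps T cells quiescent and recirculating, had 4.00 in the double KO and 2.91 in the Ezh2 KO, beside 3.51 in the Ezh1 KO and 4.53 in WT. Immediate early genes, which respond within minutes to stimulation or to cell handling, had 15 of 20 above 0, none past 2-fold and a median of 0.37. Fos had 3.09 in the double KO and 1.74 in the Ezh2 KO, beside 2.06 in the Ezh1 KO and 2.17 in WT, and Cd69, an early activation marker, had 11.3 and 6.93, beside 7.53 and 10.0. At Fos the double KO was the highest and the Ezh2 KO the lowest library. At Cd69 the same held. Activation in the animal and handling of the sample cannot be told apart in these genes.

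Proliferation and GTPase genes had medians below that of all genes. Cell cycle genes had 3 of 19 above 0, 0 past 2-fold and a median of -0.28, and 3 of the 19 passed the minimum through the Ezh2 KO alone. The replication clamp Pcna had 9.22 in the double KO and 13.7 in the Ezh2 KO, and Birc5 1.06 and 1.59. Interferon-inducible GTPases had 1 of 14 above 0 and a median of -0.35, and the 1 gene past 2-fold was the uncertain Gbp1. Of the 14, 2 passed through the Ezh2 KO alone, Gbp1 and Gbp3. Igtp had 17.8 in the double KO and 25.3 in the Ezh2 KO, beside 16.2 in the Ezh1 KO and 15.7 in WT. The wider interferon-stimulated list was split evenly, with 23 of 46 above 0 and a median of 0.00, and Ifit3 had 32.4 in the double KO and 32.9 in the Ezh2 KO. Ribosomal protein genes had a median of -0.18 over 68 genes and respiratory chain genes -0.17 over 59. Over all alternatives the median ran from -0.60 to -0.08 for follicular helper genes, -0.61 to -0.19 for CD8 T and NK cell genes, -0.64 to -0.41 for NKT genes, -0.29 to -0.11 for cell cycle genes and -0.35 to -0.17 for GTPases. It ran from 0.41 to 0.86 for B cell genes, 0.14 to 0.38 for naive genes, 0.19 to 0.52 for immediate early genes and -0.47 to 0.03 for regulatory T cell genes.

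**Figure D5:**
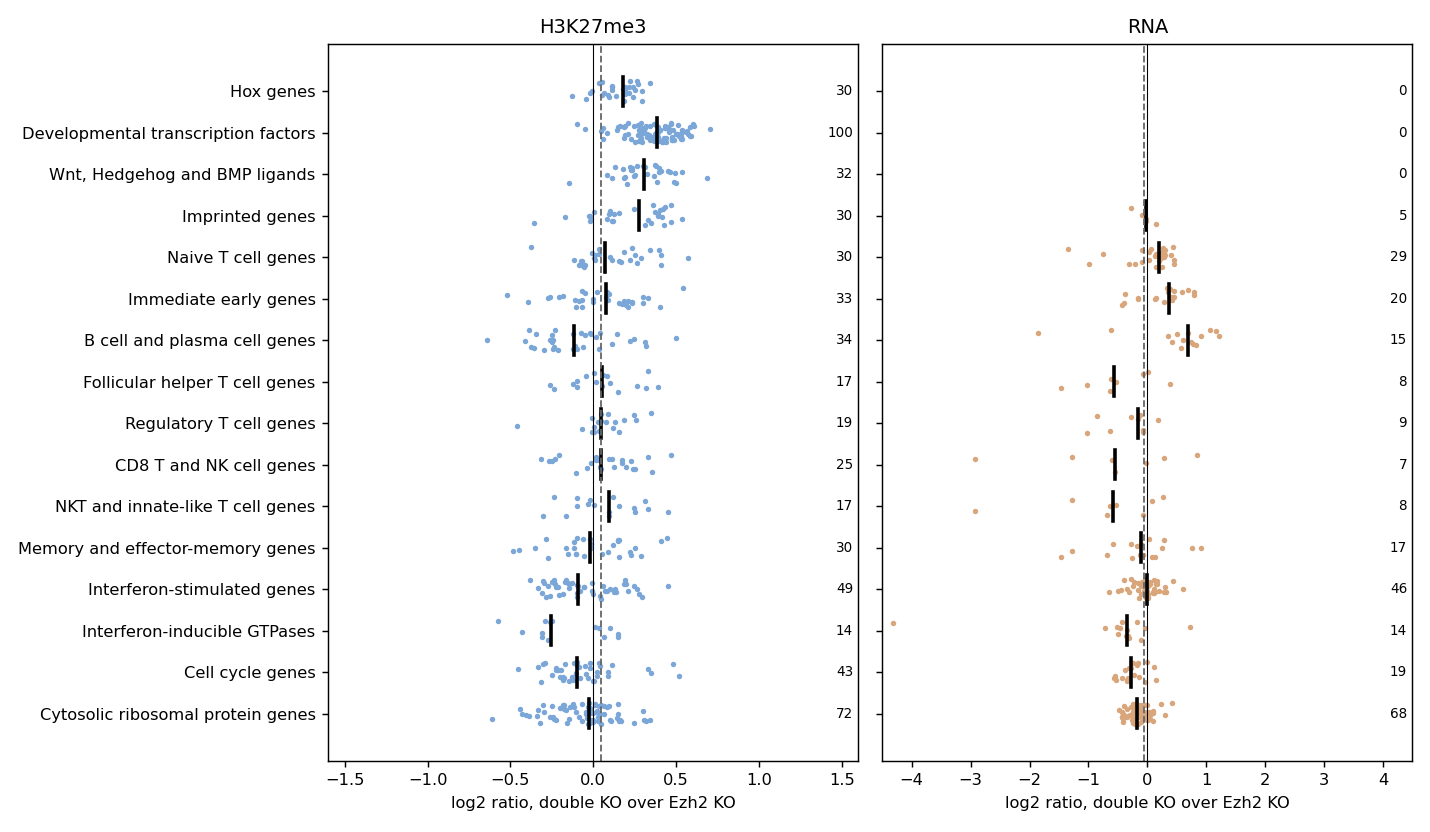
Log2 ratios of double KO over Ezh2 KO for members of 16 gene lists, H3K27me3 on the left and RNA on the right. Each point is 1 window or gene over the minimum, black bars are list medians, dashed lines the median of all features, and numbers at the right edge count the members; developmental factors have the highest mark median (0.38), and Hox genes, developmental factors and ligands have 0 RNA members.

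Chromatin regulators themselves differed little in RNA. Of 10 PRC2 subunit genes over the minimum 0 were at least 2-fold higher and 1 was lower, which is Ezh1. Eed, which binds H3K27me3 within PRC2, had 3.10 in the double KO and 3.69 in the Ezh2 KO (a log2 ratio of -0.24). Of 11 genes of H3K27 demethylases and regulators that oppose Polycomb all were above 0, with a median of 0.21 and 0 past 2-fold. Of the 11, 1 passed through the double KO alone. Kdm6a, the demethylase UTX, had 1.79 in the double KO and 1.64 in the Ezh2 KO, and Arid1a, a subunit of the SWI/SNF remodeller, had 2.07 and 1.61.

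The assays were last set side by side. No gene of the 4829 was at least 1.5-fold different in H3K27me3 and 2-fold different in RNA in any of the 4 combinations of direction, a count of 0 for each. Over all compared features, 0.534% of windows were higher and 0.289% lower at that threshold, and 0.345% of genes were higher and 0.441% lower. With shares this small, a count of 0 says little about how mark and RNA are related. Of the 96 windows with more mark 8 had RNA over the minimum, with a median RNA log2 ratio of 0.06, and of the 52 with less mark 19 did, with a median of 0.01 and 10 above 0. Of the 2278 marked genes 48 passed in RNA, with a median of -0.06, the same as for all genes, and 1 was at least 2-fold lower (Nt5e). Across genes the log2 ratios of mark and RNA had a Pearson r of 0.01, a description over genes of the same libraries. At lower thresholds, a ratio of 5 to 4 in the mark (10.8% of windows higher and 4.84% lower) and 1.5-fold in RNA (1.36% of genes higher and 1.72% lower), 7 genes had less mark and more RNA and 5 had more mark and less RNA, against 2 with more of both and 7 with less of both. Among the first were Marcks, with RNA of 1.11 in the double KO and 0.677 in the Ezh2 KO beside a mark of 14.3 and 27.8, and H2-Ab1 and Bank1, which are on the B cell list. Among the second was Nt5e, marked in WT, with a mark of 53.9 in the double KO and 42.0 in the Ezh2 KO beside RNA of 0.791 and 1.72.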

How the data were processed

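H3K27me3 ChIP-seq and RNA-seq values of 4 of the 8 libraries were compared, with the other 4 as context. Reads were aligned to mm9 with Bowtie 0.12.7, keeping uniquely placed reads, per the labels' protocols. Cufflinks, Cuffdiff and bcl2fastq appear, with no stated role, in the submitters' processing notes. The ChIP values are a coverage signal deposited by the authors, the area and highest bin per window. Judged by their steps they are per M reads, over 25 bp bins of 6 kb windows, with reads extended to 151 bp. The RNA values are also a deposited coverage signal, the mean or median over exons of peak coverage. The deposited RNA tables also hold the exon number of each gene. How these columns were computed, and whether input was subtracted, is not given in the sources used here. The number of per-sample value columns left unmapped was 0.

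From these values log2 ratios were computed with Python 3.11.15, numpy 2.4.6, pandas 2.3.3 and scipy 1.17.1, and figures with matplotlib 3.10.9. A feature needed at least 1 in the higher library. Counting intervals of 95% use reads inferred from the height of 1 read; PCR reads are not independent molecules. Named were Ezh1 and Ezh2, up to 12 features with a symbol per direction and assay past 1.5-fold (H3K27me3) or 2-fold (RNA), any gene past both, of each of 35 lists the 3 members with the largest ratio and any past 2-fold, and the 3 features on each side of the minimum. Genes outside that rule were chosen after their values were seen. The members and lists were chosen with earlier results of these data known. Alternatives were other pseudocounts, minimums, scalings, the highest bin, the median exon and other definitions of marked. The calls were tested on simulated H3K27me3 data with counting error only and planted differences larger than 2-fold. Differences between 1.5-fold and 2-fold and variation between libraries were not simulated. Some genes are not reported here.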

Additional observations from a re-analysis of the deposited data

Results flagged for a closer look

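The features here were at least 2-fold different one way between the double KO and the Ezh2 KO and at least 2-fold the other way between the Ezh1 KO and WT. With 1 library a genotype the difference between the comparisons was not tested. The pancreatic amylase genes Amy2a2, Amy2a3, Amy2a4 and Amy2a5 are near-identical and uncertain. Their RNA log2 ratios of double KO over Ezh2 KO were -3.29, -3.32, -3.30 and -3.28, and Amy2a3 had 0.253 in the double KO and 3.42 in the Ezh2 KO, beside 1.89 in the Ezh1 KO and 0.119 in WT. The values were high in the Ezh2 KO and the Ezh1 KO and low in the other two libraries.

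The H3K27me3 window ENSMUSG00000073763 had 25.5 in the double KO and 7.87 in the Ezh2 KO (a log2 ratio of 1.58), beside 11.3 in the Ezh1 KO and 23.9 in WT. In RNA, Gm10749 had 1.40 in the double KO and 0.194 in the Ezh2 KO (a log2 ratio of 2.35), beside 0.686 and 1.83. Gm5620 had 2.50 in the double KO and 0.984 in the Ezh2 KO (a log2 ratio of 1.26), beside 1.36 and 3.51. Gm10250 had 7.13 in the double KO and 3.48 in the Ezh2 KO (a log2 ratio of 1.01), beside 3.81 and 8.36. These 4 features were higher in the double KO and WT than in either single KO. Gm10524 had the reverse order, with 1.78 in the double KO and 4.01 in the Ezh2 KO (a log2 ratio of -1.13), beside 4.10 and 1.43.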

How the results depend on the processing

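No paired analysis was possible because each genotype has 1 library per assay. For H3K27me3 at 1.5-fold (96 higher and 52 lower), a pseudocount of 10 gave 8 and 5, a pseudocount of 0.1 gave 95 lower, median of ratios 51 and 80, TMM 53 higher, windows of highly expressed genes set equal 333 and 20, marked windows set equal 4 and 612, and the highest bin 473 and 563. At 2-fold (3 and 3), a pseudocount of 0.1 gave 7 lower, a pseudocount of 10 gave 0 and 1, median of ratios 1 higher, marked windows set equal 1 and 9, and the highest bin 16 and 33. The median of marked windows (0.23) was 0.20 with a pseudocount of 10, 0.18 with median of ratios or TMM, 0.33 with highly expressed genes set equal, -0.0225 with marked windows set equal, 0.11 in the highest bin, 0.20 for windows at 2 times background and 0.11 for those at 8 times. Its difference from the median of the Ezh1 KO over WT (-0.06) was -0.0117 with median of ratios, -0.0098 with TMM, -0.0122 with highly expressed genes set equal, 0.0011 with marked windows set equal, -0.15 in the highest bin, -0.046 at 2 times and -0.12 at 8 times background. For RNA at 2-fold (18 higher and 23 lower), a pseudocount of 1 gave 2 and 8, no minimum 45 and 91, a minimum of 2 gave 7 and 13, median of ratios 31 and 15, TMM 32 and 15, and the median exon 30 higher. Of 2 alternatives chosen after seeing the data, at least 1 in both libraries gave 4 and 8, and genes with a symbol alone 8 higher. In both assays, a ratio of 5 to 4 in H3K27me3 with 1.5-fold in RNA gave 2, 5, 7 and 7 genes where the main thresholds gave 0. The cause of these shifts was not tested. Of the values of named features under an alternative, 1038 for H3K27me3 and 643 for RNA kept their side of the threshold, 55 and 10 moved past it, 68 and 19 fell short of it, and no value past its threshold changed sign. Of the RNA calls, 14 of 18 higher and 15 of 23 lower genes were at 1 or more in a single library of the pair.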

Other observations

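Of 39 myeloid and dendritic cell windows 30 had a log2 ratio above 0, with a median of 0.16 against 0.05 for all windows, which turned to -0.08 with marked windows set equal. In RNA their 11 markers summed to 2.36 in the double KO and 1.37 in the Ezh2 KO, beside 1.21 in the Ezh1 KO and 0.830 in WT, and 9 of the 11 were higher in the double KO. Itgam, Cd14, Fcer1g and Emr1, which mark macrophages and other myeloid cells, were under 0.05 in both libraries. Of the 39 list genes 3 passed the minimum in RNA, with 1 above 0 and a median log2 ratio of -0.195. The 1 above 0 was Lyz2, the lysozyme of myeloid cells, with 1.19 in the double KO and 0.576 in the Ezh2 KO, and it passed through the double KO alone. Ifitm3 had 1.57 in the double KO and 2.18 in the Ezh2 KO, and Ctss had 25.1 and 28.8. The part of such cells in the result was not tested.

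Notch receptors and targets had 17 of 22 windows above 0 and a median of 0.18, which turned to -0.07 with marked windows set equal. Their 2 windows past 1.5-fold lay on opposite sides: Dtx1, a regulator of Notch signalling, had 18.4 in the double KO and 11.4 in the Ezh2 KO, while Hes1 was lower. Memory genes had 7 of 17 members above 0 in RNA, with 2 at least 2-fold lower (against 0.441% of all genes) and a median of -0.11. Of the 17, 1 passed the minimum through the double KO alone and 3 through the Ezh2 KO alone. S100a4, a calcium-binding protein gene of memory T cells, stood at 2.28 in the double KO and 1.16 in the Ezh2 KO, beside 2.33 in the Ezh1 KO and 3.71 in WT, so the Ezh2 KO was the lowest library.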
